A study of Mus musculus with 46 samples.

Results

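The regions described here were bound by both CEBP factors and not by RXR in the liver of vehicle-treated mice. CEBPa and CEBPb are bZIP transcription factors that pair with themselves and with each other and recognise the same DNA element. CEBPa maintains metabolic genes of the adult hepatocyte, and CEBPb is best known in liver for the acute phase response and regeneration. RXRa, labelled RXR, is the common partner of nuclear receptors such as CAR, PPARa, LXR and FXR.

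Peaks of the 12 lists from vehicle livers at 27 h (RXR, CEBPa and CEBPb in livers C1 to C4) were merged where they overlapped by at least 1 bp on chromosomes 1 to 19. Of the 106660 regions so formed, 7500 (7.03%) had a peak in all 4 CEBPa and all 4 CEBPb lists and in no RXR list. They are called CEBP regions without RXR below. The regions were chosen by the presence or absence of a peak in these 12 lists, so what the lists hold at them is a description and supports nothing. Regions of other kinds from the same lists serve for comparison, 4623 all-factor regions (4.33%) with a peak in all 12 lists, and 617 CEBPb-only regions (0.578%) with a peak in 4 CEBPb lists and in no CEBPa or RXR list.

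Chromatin came from single livers of male CD-1 mice, immunoprecipitated with antibodies to RXRa, CEBPa or CEBPb. TCPOBOP, a synthetic agonist of the mouse nuclear receptor CAR, was injected at 3 mg/kg, and control mice received its vehicle, corn oil with 1% DMSO. Each factor was measured at 3 h in 3 livers per treatment and at 27 h in 4 livers per treatment. The same 8 livers served all factors at 27 h (mice of 8 weeks), while at 3 h CEBPa and CEBPb shared 6 livers (7 weeks) and RXR came from 6 others (8 weeks). The run codes in the labels' descriptions give 1 flow cell and lane for all RXR libraries, and the same lane for TCPOBOP and vehicle libraries of each factor and time. By these codes the CEBP libraries of 3 h and 27 h lay on different flow cells, so time, age and flow cell cannot be told apart for them. Each library is represented by its list of peak positions on the assembly mm9, with no read count, score or sequence, so depth is unknown and missing peaks may reflect signal that fell under the caller's threshold. Whole liver was used, so binding in fewer cells and weaker binding per cell cannot be told apart. No gene is named and no sequence is shown, because no mm9 annotation or genome was used here.

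The 42 lists held 11899 to 55513 peaks, and list length moved with most call rates below. Of the RXR lists, vehicle liver A1 at 3 h stood apart with 51951 peaks on chromosomes 1 to 19, against 21888 to 39972 in the other 9 lists that the rule did not use. Of the CEBPa lists, TCPOBOP liver D4 at 27 h was the shortest. The input controls overlapped 26 of the 7500 regions (0.347%). The largest share of peaks with the same start and end in 2 lists of a group was 0.0359% over 54 pairs, so no list was a copy of another of its group. Lists of different groups were not compared in this way.

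The CEBP regions without RXR were 206 to 3223 bp wide with a median of 373 bp. The all-factor regions had a median of 622 bp and the CEBPb-only regions one of 300.0 bp. A region spans all its merged peaks, and the rule adds RXR peaks to all-factor regions and bars CEBPa peaks from CEBPb-only regions. The order of these widths is thus in part built in by the rule. The CEBP regions without RXR lay on all 19 chromosomes, from 244 on chromosome 19 to 535 on chromosome 2. As a share of all regions on a chromosome they made up 6.08% (chromosome 8) to 8.24% (chromosome 3). Of them, 6647 had no other such region within 10 kb and 853 (11.4%) formed 380 pairs, 27 groups of 3 and 3 groups of 4. The median distance to the next one was 67984 bp. Of the all-factor regions, 15.1% had another all-factor region within 10 kb, and no such share was computed over all regions.

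The groups with the most members held 4 each. One on chromosome 18, 32331460 to 32347372, spanned 15913 bp and contained no other region of the 12 lists. One on chromosome 5, 136166842 to 136187097, included 1 all-factor region among its 6 regions, and 2 of the 6 had RXR in at least 1 vehicle liver. One on chromosome 14, 65965757 to 65988844, had 6 regions, 2 of them with RXR and none of the all-factor kind.

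After TCPOBOP, 27 h livers kept CEBPb at nearly every one of these regions and CEBPa at about 9 in 10. CEBPb was called at 99.2%, 99.6%, 98.8% and 99.3% of the 7500 regions in TCPOBOP livers D1 to D4 (99.2% ± 0.335, SD, n = 4). CEBPa was called at 92.3%, 92.4%, 92.7% and 82.3% in the same livers (89.9% ± 5.07, SD, n = 4). D1 to D3 were close to each other, and D4, whose CEBPa list was the shortest at 20116 peaks, was low. RXR was called at 7.83%, 4.32%, 1.84% and 4.40% in D1 to D4 (4.60% ± 2.46, SD, n = 4), highest in D1 and lowest in D3, which were also the longest and the shortest of these RXR lists. The vehicle livers of 27 h stand at 100%, 100% and 0% by the rule, so these differences have no test.

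A like-for-like value for vehicle livers was had by applying the rule to 3 of the 4 vehicle livers and reading the fourth, a description added after the data were seen. The 4 resulting sets held 8242 to 9187 regions. In them CEBPb was called at 98.8% after TCPOBOP, as the mean over the sets, and at 97.5% ± 0.603 (SD, n = 4) in the left-out vehicle livers. Livers C1 to C4 were at 97.5%, 98.4%, 97.0% and 97.3%. The lowest TCPOBOP liver of the same sets was at 98.0%, 98.4%, 98.3% and 97.9%. The CEBPb lists of C1 to C4 held 44750, 46531, 38617 and 44076 peaks, and those of the TCPOBOP livers 45110 to 54596. Whether list length plays a part was not tested. CEBPa was called at 87.4% in TCPOBOP livers, and at 85.1%, 95.4%, 95.4% and 91.4% in the left-out vehicle livers C1 to C4. Within a set, the left-out vehicle liver lay above all 4 TCPOBOP livers in 3 of 4 sets. The highest TCPOBOP liver was at 91.3%, 91.2% and 90.4% in the sets that left out C2, C3 and C4, and in the set that left out C1 the TCPOBOP livers ranged from 76.7% to 89.3%, around the 85.1% of C1. The CEBPa lists of C2, C3 and C4 held 34660, 35132 and 30476 peaks and that of C1 25784. Those of the TCPOBOP livers held 20116 to 28610, so the order of CEBPa call rates went with list length. The part of list length was not tested. RXR was called at 5.39% in TCPOBOP livers, and at 2.66%, 4.81%, 2.33% and 8.22% in the left-out vehicle livers C1 to C4. The RXR means of TCPOBOP livers, 4.93% to 6.15% over the sets, lay within the range of the single vehicle livers. No test was made on these values, because the sets share livers.

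Of the 7500 regions, 5469 (72.9%) had both CEBP factors in all 4 TCPOBOP livers of 27 h. CEBPb was in all 4 at 7309 regions (97.5%) and in none of the 4 at no region, where 0.134% of all regions with CEBPb in 4 vehicle livers lacked it in every TCPOBOP liver. CEBPa was in all 4 at 5492 regions (73.2%) and in none at 36 (0.480%), against 0.759% of all regions with CEBPa in 4 vehicle livers. CEBPb was called in all 4 TCPOBOP livers at 27 of these 36. The rule used the vehicle lists of this contrast, so nothing is read from the counts.

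At the 3 of these 36 regions with the widest vehicle CEBP peaks, averaged over both factors, CEBPb stayed in all 4 TCPOBOP livers of 27 h. On chromosome 7 at 87028543 to 87029091, no TCPOBOP liver of 27 h had a CEBPa peak, against peaks of 415, 408, 233 and 253 bp in vehicle livers C1 to C4. At 3 h the same region had CEBPa peaks of 434, 469 and 439 bp in all TCPOBOP livers and of 232 and 516 bp in 2 of 3 vehicle livers. On chromosome 10 at 92155905 to 92156527, CEBPa was absent from the TCPOBOP lists of 27 h, and at 3 h it was called in 2 of 3 TCPOBOP livers and 1 of 3 vehicle livers. On chromosome 12 at 15822918 to 15823343 the CEBPa counts of 3 h were the same. The 27 h pattern of CEBPa was thus not repeated at 3 h in any of these 3 regions. In vehicle livers C1 to C4 the CEBPa peaks on chromosome 10 were 190, 299, 272 and 532 bp wide. On chromosome 12 they were 186, 331, 375 and 291 bp wide. CEBPb was called in no list of 3 h at the chromosome 10 and 12 regions.

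**Figure D1:**
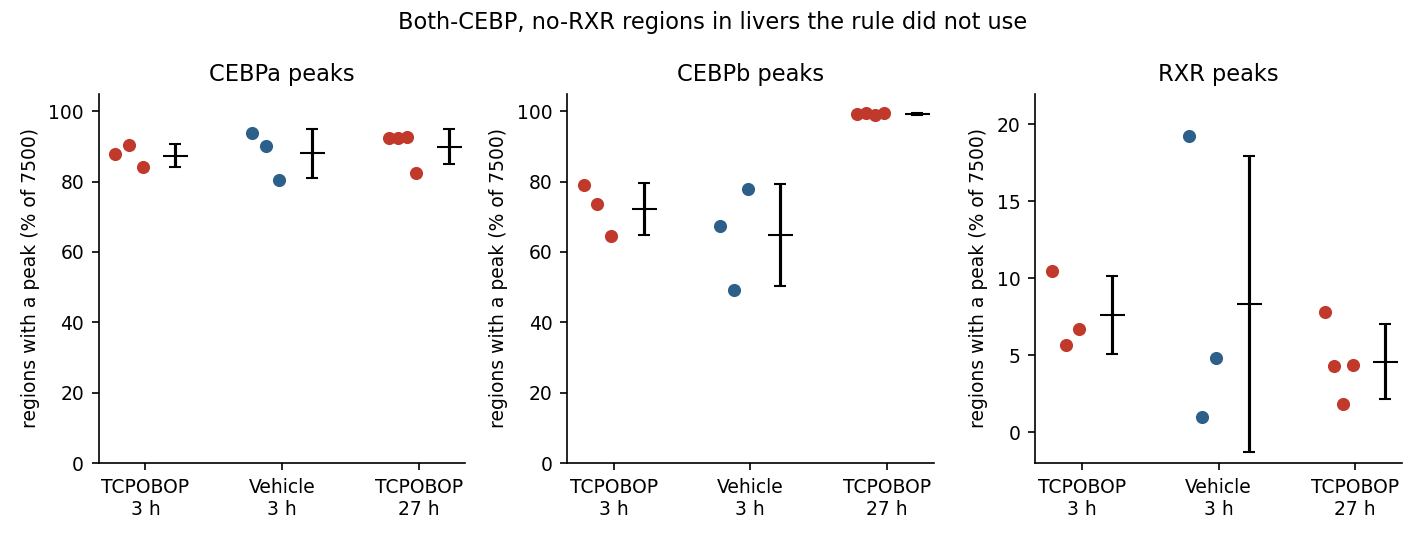
Share of the 7500 CEBP regions without RXR (vertical axis, percent) that had a CEBPa, CEBPb or RXR peak in each liver (points), with the mean and SD of each group in black. CEBPb lies at 98.8% to 99.6% in TCPOBOP livers at 27 h and at 49.2% to 79% in the 3 h livers, and the 3 h treatment groups overlap for every factor.

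The treatments did not differ beyond the spread between livers at 3 h for any of the factors. CEBPa was called at 87.7%, 90.4% and 84.0% of the regions after TCPOBOP, and at 93.7%, 89.9% and 80.3% after vehicle. The groups overlapped, with means of 87.4% ± 3.20 after TCPOBOP and 88.0% ± 6.90 after vehicle (SD, n = 3 each; difference of -0.609 points). An exact two-sided permutation test gave p = 1.00, and the adjusted p over 3 factors was 1.00. CEBPb was called at 79%, 73.5% and 64.4% after TCPOBOP, and at 67.2%, 49.2% and 77.7% after vehicle. The mean was 72.3% ± 7.37 with TCPOBOP and 64.7% ± 14.5 with vehicle (SD, n = 3 each; difference of 7.58 points, exact permutation p = 0.600, adjusted p = 1.00). RXR was called at 10.5%, 5.64% and 6.73% after TCPOBOP, and at 19.2%, 1.03% and 4.83% after vehicle, the highest being A1. Its means were 7.61% ± 2.53 with TCPOBOP and 8.36% ± 9.61 with vehicle (SD, n = 3 each; difference of -0.751 points, exact permutation p = 1.00, adjusted p = 1.00).

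With 3 livers against 3 no p below 0.1 is possible, so these tests cannot show that the treatments act alike. The direction of each difference was not stable. With the 3 h lists of a factor shortened to equal length by keeping their widest peaks, each difference turned round. It was then 0.569 points for CEBPa, -1.86 for CEBPb and 0.120 for RXR. The parts of list length and peak width in this were not tested. Without vehicle liver A1 the RXR difference was 4.69 points, and without TCPOBOP liver B3 it was 0.236. The CEBPa difference was 2.24 points without vehicle liver A44, 0.382 without A45 and 1.07 without TCPOBOP liver D46. The CEBPb difference was -0.193 points without vehicle liver A45, whose list was the shortest of all.

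Single regions that separated the treatments at 3 h were few. Of 7415 CEBP regions without RXR that had CEBPa in any 3 h list, 15 (0.202%) had it in all 3 TCPOBOP and no vehicle liver and 15 in the reverse pattern, against 0.354% and 0.652% of all regions with CEBPa at 3 h. For CEBPb the counts were 61 of 7144 (0.854%) and 5 (0.0700%), against 0.681% and 0.105% of all regions. For RXR they were 7 of 2013 (0.348%) and 2 (0.0994%), against 0.273% and 0.120%. The excess of CEBPb calls on the TCPOBOP side was also present in the background.

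The factors dropped out unequally. In the 6 livers of 3 h, where both CEBP factors were read from the same animal, CEBPa alone was called at 14%, 19.6% and 23.4% of the regions in TCPOBOP livers D44, D45 and D46, and at 27.8%, 41.5% and 11.5% in vehicle livers A44, A45 and A46. CEBPb alone was called at 2.75% to 5.25% in these TCPOBOP livers and at 0.733% to 8.91% in the vehicle livers. At 27 h the order was the opposite, with CEBPb alone at 6.64% to 17.2% and CEBPa alone at 0.160% to 0.560% in the TCPOBOP livers. All-factor regions had the same orders. CEBPa alone was called at 5.26% to 23.7% of them and CEBPb alone at 0.281% to 3.20% at 3 h. In the TCPOBOP livers of 27 h these shares were 0.0216% to 0.0649% and 3.48% to 9.73%. The CEBPb lists of 3 h held 11733 to 22644 peaks on chromosomes 1 to 19 and those of TCPOBOP livers at 27 h 45110 to 54596. The part of list length in this shift was not tested. Regions with neither factor made up 0.253% to 0.653% in the 4 TCPOBOP livers of 27 h.

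Over the 10 livers per factor that the rule did not use, 2447 regions (32.6%) had both CEBP factors in every one, that is in all 28 CEBP lists, against 61.6% of the all-factor regions. CEBPa was in all 10 at 4248 regions (56.6%) and CEBPb in all 10 at 2605 (34.7%). Of the 2447 regions, 1386 also had no RXR peak in any of the 14 RXR lists.

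Among those 2447 regions, the one with the widest CEBP peaks, on chromosome 5 at 32164817 to 32165800, had CEBPa peaks of 848, 951, 912 and 810 bp in TCPOBOP livers D1 to D4, and of 898, 883, 938 and 920 bp in vehicle livers C1 to C4. Its CEBPb peaks were 947, 955, 904 and 930 bp wide in TCPOBOP livers and 907, 948, 921 and 916 bp in vehicle livers of 27 h, and it had no RXR peak in any of the 14 lists. The treatments overlapped for both factors at 27 h. Next came chromosome 6 at 47331500 to 47332413, with narrow RXR peaks (186 and 223 bp) in 2 of 3 TCPOBOP livers and none of the vehicle livers at 3 h. Its CEBPa peaks at 3 h were 830, 852 and 882 bp wide in TCPOBOP livers and 929, 907 and 897 bp in vehicle livers, and its CEBPb peaks at 27 h were 882 to 894 bp and 841 to 881 bp, with no overlap in either case. Chromosome 5 at 151396071 to 151396886 and chromosome 13 at 28620811 to 28621565 had no RXR peak in any list. On chromosome 13 the CEBPa peaks of 3 h did not overlap, at 673, 751 and 635 bp in TCPOBOP livers and 764, 822 and 796 bp in vehicle livers. How often the widths of the treatments fail to overlap over all regions was not counted, so nothing is read from these cases. Chromosome 6 at 141908686 to 141909390 had 1 RXR peak of 232 bp, in a vehicle liver of 3 h. Width percentiles of these 5 within their CEBP lists, taken over the 20 lists that the rule did not use, averaged 98.9 to 99.8.

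**Figure D2:**
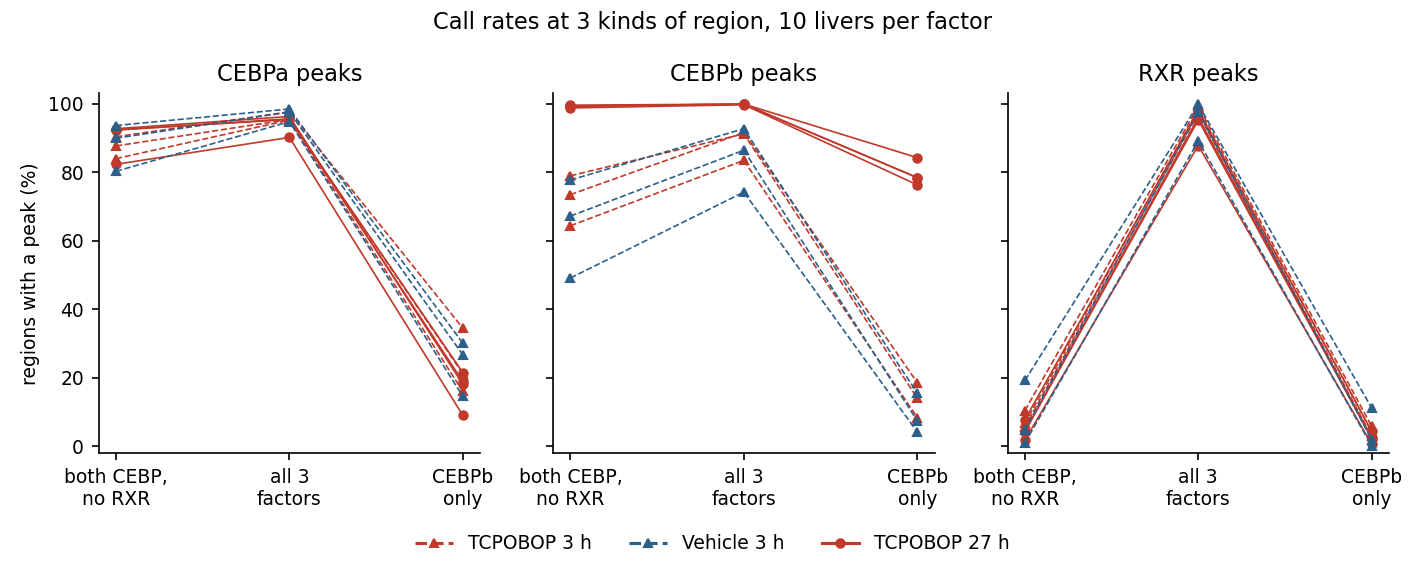
Call rates of CEBPa, CEBPb and RXR (vertical axis, percent of regions) at CEBP regions without RXR, all-factor regions and CEBPb-only regions, with 1 line per liver for the 10 livers of each factor that the rule did not use. Every line rises from CEBP regions without RXR to all-factor regions and falls to CEBPb-only regions.

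Compared with all-factor regions in the same lists, CEBP regions without RXR were called less often by both CEBP antibodies and had narrower CEBP peaks. CEBPa was called at 88.6% ± 4.78 of them and at 95.7% ± 2.29 of the all-factor regions (SD, n = 10 livers), lower in 10 of 10 livers by 3.00 to 14.5 points. The mean difference was -7.10 points (exact sign-flip permutation test, two-sided p = 0.00195, the smallest that 10 livers allow, adjusted p = 0.00251 over 9 results). CEBPb was called at 80.8% ± 17.9 and 91.9% ± 8.62 (SD, n = 10), a mean difference of -11.1 points with the same sign in 10 of 10 livers and the same exact p and adjusted p. In the 4 TCPOBOP livers of 27 h alone the CEBPb difference was -0.619 points, since both kinds were near 100%, and the CEBPa difference was -4.44 points. With lists of equal length the CEBPa difference was -11 points (adjusted p = 0.00220 by the same exact test). Such lists keep the widest peaks, and peaks at CEBP regions without RXR were narrower, so this cut is not neutral between the kinds of region. In the 6 livers of 3 h alone the CEBPb difference was -18.1 points (adjusted p = 0.0402 by the same exact test).

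The CEBPa peaks had a median width of 325 ± 37.5 bp at CEBP regions without RXR and of 375 ± 54.8 bp at all-factor regions (SD over 10 livers of the median per list). That is a ratio of 0.869, or -0.20 on the log2 scale. For CEBPb the widths were 305 ± 19.9 and 347 ± 19.5 bp (SD, n = 10), a ratio of 0.879, or -0.19 on the log2 scale. Both differences had the same sign in 10 of 10 livers (exact sign-flip permutation p = 0.00195, adjusted p = 0.00251 for each). All-factor regions were themselves wider (median 622 against 373 bp), and the widest overlapping peak was taken, so the rule may favour this outcome. Windows of 200 bp were used for call shares only, so the part of region width was not tested. In width percentile within the list, the medians averaged 59.8 at CEBP regions without RXR for each CEBP factor, against 76.2 for CEBPa and 75.3 for CEBPb at all-factor regions. Peak width is the only measure of a peak's size in these lists, and it also grows with depth and enrichment of a library.

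In both kinds of region, CEBP call rates were higher where the vehicle CEBP peaks were wider. The regions were divided into 4 equal parts of 1875 by the mean width percentile of their CEBP peaks in the vehicle lists of 27 h, and the all-factor regions were placed in the same bands. In the widest band CEBPa was called at 96.6% ± 0.983 of CEBP regions without RXR and at 99.3% ± 0.306 of all-factor regions in the 6 livers of 3 h, and CEBPb at 90.9% ± 4.35 and 95.4% ± 2.95 (SD, n = 6). In the narrowest band CEBPa was called at 71.6% ± 10 and 82.1% ± 7.08, and CEBPb at 39.8% ± 13.7 and 53.3% ± 16.9. The widest band held 25% of CEBP regions without RXR by construction and 55.2% of all-factor regions. In the 4 TCPOBOP livers of 27 h, CEBPa call rates of the 2 kinds were close within bands, at 74.9% ± 11.2 and 74.5% ± 8.61 in the narrowest and at 97.9% ± 1.30 and 98.3% ± 1.10 in the widest (SD, n = 4). These values by band are a description with no test.

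CEBPa and CEBPb peaks of 1 liver had centres near each other. A centre is the midpoint of a peak, and both peaks had to overlap the same region, so some closeness is built in. The median distance between their centres at CEBP regions without RXR was 15.5 to 17 bp in the 4 TCPOBOP livers of 27 h, 22 to 26.5 bp in the TCPOBOP livers of 3 h and 25 to 26.5 bp in the vehicle livers of 3 h. Over the 10 livers it was 21.5 ± 4.63 bp at CEBP regions without RXR and 22.3 ± 4.60 bp at all-factor regions (SD, n = 10), a difference of -0.775 bp that was negative in 8 of 10 livers (exact sign-flip permutation p = 0.0195, adjusted p = 0.0195). This small difference missed the threshold with lists of equal length (-0.600 bp, adjusted p = 0.0898 by the same exact test) and in the 6 livers of 3 h alone (-0.667 bp, adjusted p = 0.250). The 2 factors also exchanged order in width. In livers where both were called, CEBPb peaks were narrower than CEBPa peaks at 3 h, with log2 ratios of the medians of -0.33 to -0.25 after TCPOBOP and -0.44 to -0.21 after vehicle. They were wider in the TCPOBOP livers of 27 h (0.14 to 0.26), and time and flow cell cannot be told apart here. All-factor regions had the same exchange, at -0.42 to -0.24 at 3 h and 0.16 to 0.26 in the TCPOBOP livers of 27 h.

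CEBPb-only regions, which lack CEBPa in vehicle livers of 27 h, were far less reproducible. CEBPb was called at 80.8% ± 17.9 of CEBP regions without RXR and at 38.6% ± 35.4 of CEBPb-only regions (SD, n = 10), higher in 10 of 10 livers by 15.3 to 64.9 points. The mean difference was 42.2 points (exact sign-flip permutation p = 0.00195, adjusted p = 0.00251), and 19.9 points in the 4 TCPOBOP livers of 27 h alone. At 3 h CEBPb was found at 13.7% ± 5.12 of CEBPb-only regions with TCPOBOP and at 9.08% ± 5.84 with vehicle (SD, n = 3 each). Their CEBPb peaks were also narrower, with a median of 244 ± 12.1 bp (SD, n = 10). The part of peak width in this difference was not tested.

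RXR peaks at CEBP regions without RXR were rare, narrow and scattered in the livers that the rule did not use. No RXR peak was found at 5216 of the 7500 regions (69.5%) in any of the 10 lists, and 1079 regions (14.4%) had one in exactly 1 list, in 492 cases that of vehicle liver A1. RXR was in at least 5 of the 10 lists at 209 regions (2.79%), in 9 at 2 regions, and in all 10 at none. At all-factor regions RXR was in at least 5 of the 10 lists at 99.5%. The 2 regions with RXR in 9 lists were on chromosome 3, at 19411983 to 19412376 and at 54535599 to 54536022, and were picked out once their values were known. Each had RXR in all 7 TCPOBOP livers of both times and in 2 of 3 vehicle livers of 3 h.

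The median RXR peak at CEBP regions without RXR was 243 ± 12.2 bp wide, at a width percentile of 18.3 to 27.7 within its list. At all-factor regions it was 408 ± 38.7 bp wide, at percentiles of 63.3 to 75.2 (SD, n = 10). The ranges did not overlap, and as the rule chose on RXR this is given with no test.

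**Figure D3:**
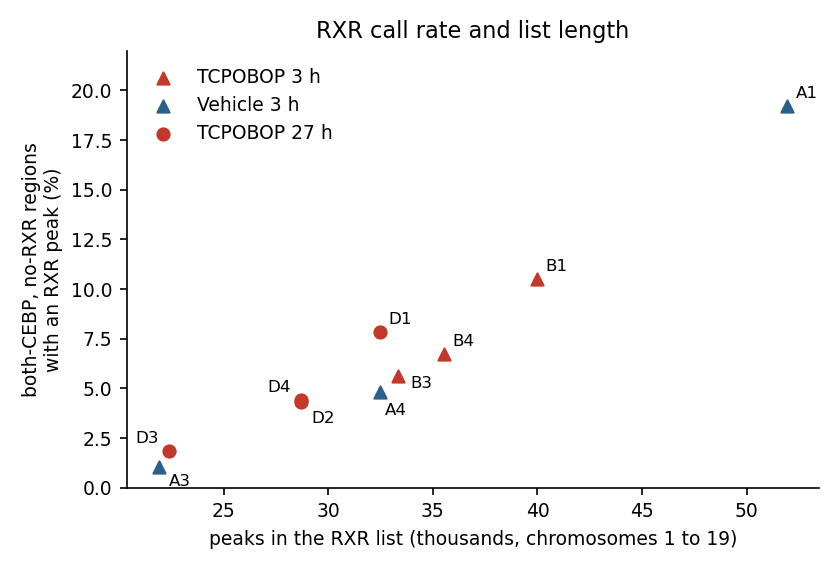
Share of CEBP regions without RXR that had an RXR peak (vertical axis, percent) against the number of peaks in the RXR list on chromosomes 1 to 19 (horizontal axis, in units of 1000 peaks), 1 point per liver. The shortest list, A3, has 1.03% and the longest, A1, has 19.2%, and livers of both treatments are mixed along the order of length.

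The RXR call rate was higher in most of the longer RXR lists. The list with the fewest peaks (A3, 21888) had RXR at 1.03% of the regions, and the one with the most (A1, 51951) at 19.2%. In order of length the next shortest were D3, D4 and D2, with 1.84%, 4.40% and 4.32%. The next longest after A1 were B1 and B4, with 10.5% and 6.73%. In between, D1 and A4 had lists of nearly the same length (32483 and 32484 peaks) with 7.83% and 4.83%, and D1 was also above the longer lists B3 (5.64%) and B4. The 10 libraries share their lane code, and treatment groups were mixed along this order. RXR lists were also shortened to their widest 21888 peaks at 3 h and 22363 at 27 h. RXR was then called at 3 h at 2.38% ± 0.396 with TCPOBOP and 2.26% ± 1.59 with vehicle (SD, n = 3 each). In TCPOBOP livers of 27 h it was called at 2.35% ± 0.623 (SD, n = 4). RXR peaks at these regions were among the narrower of their lists, so this cut is not neutral to them.

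RXR was nevertheless called more often at CEBP regions without RXR than at CEBPb-only regions of the same lists, at 6.63% ± 5.21 against 3.61% ± 3.16 (SD, n = 10). The difference was 3.02 points and positive in 10 of 10 livers, from 0.865 to 8.06 points (exact sign-flip permutation p = 0.00195, adjusted p = 0.00251). With lists of equal length it was 1.02 points, again positive in 10 of 10 livers (adjusted p = 0.00220 by the same exact test). Within the CEBP regions without RXR, the rate was higher where CEBP peaks were wider. In the 4 TCPOBOP livers of 27 h RXR was called at 2.95% ± 1.38, 3.32% ± 1.73, 4.73% ± 2.39 and 7.39% ± 4.39 from the narrowest to the widest band (SD, n = 4), and in the 6 livers of 3 h at 4.98% ± 4.23 to 12% ± 9.30 (SD, n = 6).

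Regions with RXR in some of the vehicle livers had RXR call rates between those of CEBP regions without RXR and all-factor regions. Regions with both CEBP factors in all vehicle livers and RXR in 1, 2 and 3 of the 4 numbered 1532, 1120 and 1215. Those with RXR in 0 and in 4 numbered 7500 and 4623. From 0 to 4 vehicle RXR lists, RXR was called in TCPOBOP livers of 27 h at 4.60%, 26.3%, 47.8%, 66.4% and 94.3% of the regions. CEBPa stood at 89.9%, 93.2%, 93.2%, 93.5% and 94.4% in the same order, and CEBPb at 99.2% to 99.9%. In the 6 livers of 3 h, CEBPb stood at 68.5% ± 11.1, 81.2% ± 8.49, 82.9% ± 8.16, 83.7% ± 7.22 and 86.6% ± 7.03 (SD, n = 6). CEBPa stood there at 87.7% ± 4.82, 94.7% ± 2.24, 95.5% ± 1.90, 95.6% ± 1.66 and 96.5% ± 1.56 (SD, n = 6). RXR in these livers of 3 h stood at 7.99% ± 6.30, 40.7% ± 21.9, 63.2% ± 23.0, 79.5% ± 18 and 96.9% ± 3.94 (SD, n = 6). At 3 h the largest step lay between 0 and 1 RXR list for CEBPa, CEBPb and RXR alike. In TCPOBOP livers of 27 h the largest step in RXR lay between 3 and 4. On the CEBP side, 2534 regions had CEBPa in 3 lists, CEBPb in 4 and RXR in 0, with CEBPa at 64% ± 12.1 in TCPOBOP livers of 27 h. A further 504 regions had CEBPb in 3 lists and CEBPa in 4, with CEBPb at 90.9% ± 3.69 (SD, n = 4).

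**Figure D4:**
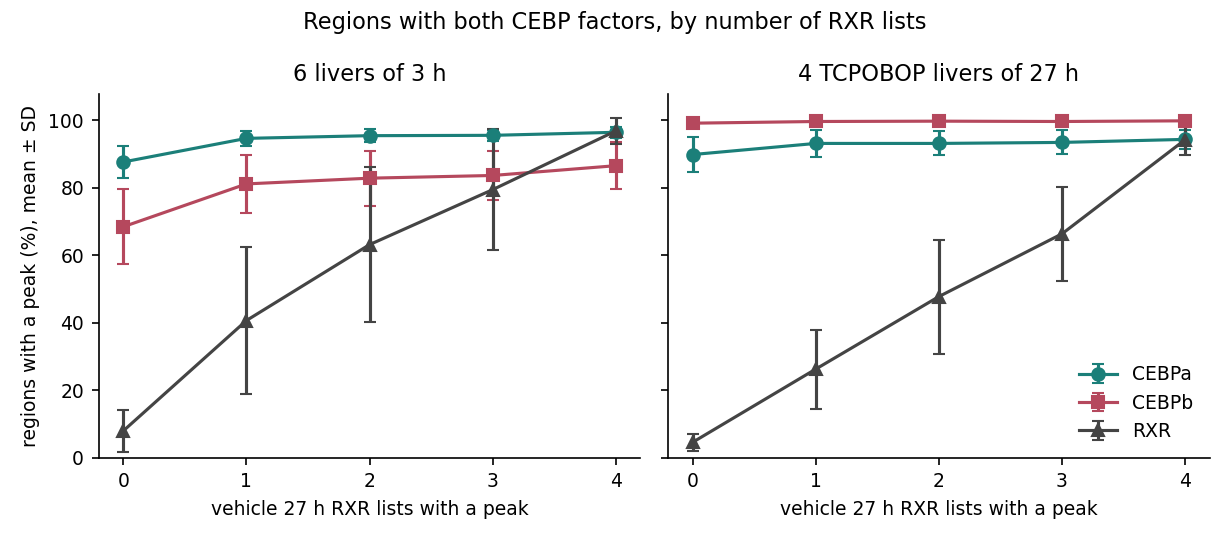
Regions with CEBPa and CEBPb in all 4 vehicle livers of 27 h, placed by the number of vehicle RXR lists with a peak (horizontal axis), and the share of them called by each factor (vertical axis, percent, mean ± SD) in the 6 livers of 3 h and in the 4 TCPOBOP livers of 27 h. CEBP regions without RXR are at 0, where RXR is at 7.99% and 4.60%, and all-factor regions are at 4, where RXR is at 96.9% and 94.3%.

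At 27 h after TCPOBOP, 994 CEBP regions without RXR (13.3%) had an RXR peak in at least 1 of the 4 livers, 281 in at least 2 and 20 in all 4 (0.267%). Among all regions with no RXR in vehicle livers of 27 h, many of which rest on 1 peak of 1 list, 4.89% had RXR in at least 1 TCPOBOP liver and 0.0961% in all 4. Of 713 regions with RXR in exactly 1 TCPOBOP liver, 341 were called in D1, 151 in D2, 47 in D3 and 174 in D4. The rule used this contrast, and nothing is read from these counts.

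The 20 regions with RXR in all 4 TCPOBOP livers were then read in the RXR lists of 3 h, from other animals. RXR was called at 17, 14 and 13 of the 20 in TCPOBOP livers B1, B3 and B4, and at 17, 2 and 5 of the 20 in vehicle livers A1, A3 and A4. The vehicle liver A1, with the longest list, matched the highest TCPOBOP liver, so the groups overlapped. The other 37 regions with RXR in 4 TCPOBOP and 0 vehicle livers of 27 h were called at 89.2%, 62.2% and 64.9% in the same TCPOBOP livers and at 56.8%, 8.11% and 32.4% in the vehicle livers. CEBPa and CEBPb were called at all 20 regions in each of the 4 TCPOBOP livers of 27 h, where over all 7500 regions CEBPa was at 82.3% to 92.7% and CEBPb at 98.8% to 99.6%. At the other 37 regions CEBPa was called at 45.9% to 67.6% and CEBPb at 89.2% to 94.6% in these livers. The rule required both CEBP factors in all 4 vehicle livers of 27 h at the 20 regions and not at the 37. Nothing is read from this contrast.

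One of the 20 separated the treatments in every RXR list of the series. On chromosome 18 at 47559083 to 47559427, RXR peaks were 560, 442, 282 and 247 bp wide in TCPOBOP livers D1 to D4 and 491, 378 and 230 bp in TCPOBOP livers of 3 h, and no vehicle liver of either time had one. Over all regions without RXR in vehicle livers of 27 h, 0.00674% (4 of 59336) had RXR in all 7 TCPOBOP and no vehicle lists. These 4 were among the 57 regions that, like the 20, had RXR in all 4 TCPOBOP and no vehicle livers of 27 h. At the chromosome 18 region the CEBPb peaks were 442, 440, 385 and 395 bp wide in TCPOBOP livers of 27 h. They were 325, 271, 292 and 252 bp wide in vehicle livers, with no overlap. The CEBPa peaks were 381, 432, 314 and 335 bp in TCPOBOP livers and 303, 284, 287 and 290 bp in vehicle livers, again with no overlap. The share of all regions without such overlap was not counted, and the region was picked by its RXR peaks, so nothing is read from this. At 3 h the CEBPa widths overlapped, at 323 to 409 bp in TCPOBOP and 257 to 383 bp in vehicle livers, and CEBPb was called in 3 of 3 TCPOBOP and 2 of 3 vehicle livers.

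The next 4 of the 20 by RXR peak width did not separate the treatments at 3 h. The first lay on chromosome 5 (147720218 to 147720592) and the second on chromosome 2 (162765391 to 162765779). The others were on chromosome 8 (117947032 to 117947434) and chromosome 1 (54609471 to 54609919). RXR was called there in 3, 2, 1 and 3 TCPOBOP livers of 3 h, and in 1, 2, 2 and 1 vehicle livers, in that order. All 4 had CEBPa in every list of the series.

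**Figure D5:**
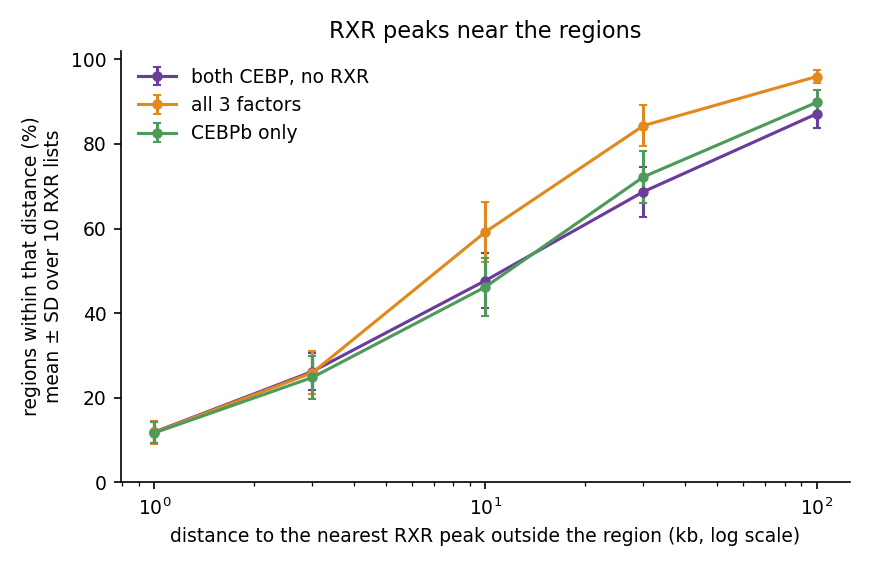
Share of regions (vertical axis, percent) with an RXR peak outside the region but within a given distance (horizontal axis, kb, log scale) for the 3 kinds of region, as mean ± SD over the 10 RXR lists that the rule did not use. At 10 kb the CEBP regions without RXR stand at 47.7%, the all-factor regions at 59.2% and the CEBPb-only regions at 46.2%.

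Many CEBP regions without RXR had an RXR peak nearby, though no share over all regions was computed for comparison. An RXR peak that did not touch the region lay within 10 kb of 47.7% ± 6.44 of CEBP regions without RXR. The share was 59.2% ± 7.04 for all-factor regions (SD, n = 10 RXR lists). The difference was -11.5 points and negative in 10 of 10 lists (exact sign-flip permutation p = 0.00195, adjusted p = 0.00251). Against CEBPb-only regions, at 46.2% ± 6.92, the difference was 1.49 points and positive in 9 of 10 lists (exact sign-flip permutation p = 0.0137, adjusted p = 0.0154), and in the 6 lists of 3 h alone it missed the threshold (1.27 points, adjusted p = 0.176 by the same exact test). Within 1 kb 11.9%, 11.8% and 11.7% of CEBP regions without RXR, all-factor regions and CEBPb-only regions had an RXR peak. Within 100 kb 87.1%, 95.9% and 89.8% had one. All-factor regions lay nearer to each other, with a median of 54133 bp to the next one, while CEBP regions without RXR had a median of 108914 bp to the nearest all-factor region.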

How the data were processed

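Chromatin immunoprecipitation followed by sequencing covered RXR, CEBPa and CEBPb in livers of single mice. The submitters' processing notes name Bowtie2 2.3.2, MACS2 and the assembly mm9, with no settings. The authors deposited 1 peak list per library, with positions and names only. Lists were read as deposited, starts were raised by 1 for print, and chromosomes X and Y were left out by the rule. No depth, interval or rank by enrichment can be had, and a longer list may come from a deeper library. The tables of names and promoters are on another assembly and were not used, so gene lists and motifs were not analysed here.

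A list called a region when a peak overlapped it by 1 bp, and where several did the widest was taken. The members, lists of comparison and named regions were chosen with earlier results of these data known. Regions were named by a fixed rule: the 5 widest with CEBP in all 28 lists, the 5 widest with RXR in all 4 TCPOBOP livers of 27 h and any with RXR in 7 TCPOBOP and 0 vehicle lists, 3 each without CEBPa or CEBPb in TCPOBOP livers of 27 h (there was none without CEBPb), and the 3 largest groups. Shares at 3 h were compared in exact permutation tests (Benjamini-Hochberg over 3), and kinds of region within lists in exact sign-flip tests over 10 livers (over 9 results). A median width or distance needed at least 20 peaks. Lists of equal length held the widest peaks of each list. Their number was that of the shortest list of that factor and time among those the rule did not use. Functions were tested on simulated lists. Python 3.11.15, numpy 2.4.6 and pandas 2.3.3 were used. The bands of width, the left-out vehicle livers and windows of 200 bp were added after the data were seen.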

Additional observations from a re-analysis of the deposited data

Results flagged for a closer look

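TCPOBOP liver D4 stood apart in CEBPa at 27 h, where 82.3% of CEBP regions without RXR were called against 92.3% to 92.7% in the other 3 livers. Its gap was 0.961 of the range of the 4 livers, above the critical value of Dixon's test, and 8 measures in the 4 TCPOBOP livers of 27 h were examined in this way (the 3 call shares, the 3 peak widths, the centre distance and RXR within 10 kb), of which chance marks about 1 in 20. The D4 list was also the shortest CEBPa list of the series. With the CEBPa lists of that time at equal length, the 4 livers ranged from 80.6% to 82.3%.

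The input control of liver A38 had peaks in 23 of the 7500 regions (0.307%), above the 0.0400% that a count of 0 would allow, for counting error only. The share was 1.99% of all-factor regions and 0.792% of all regions. The other inputs, of livers D40, A46 and D46, overlapped 3, 0 and 0 of the regions.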

How the results depend on the processing

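Of 180 alternative values, 158 kept their direction and side of the threshold, or for the number of regions stayed within 1.5 times. The number of CEBP regions without RXR was 11541 when 3 of 4 lists of each CEBP factor sufficed, and 8242 to 9187 without 1 vehicle liver. At 3 h, lists of equal length turned the TCPOBOP minus vehicle difference to 0.569 points for CEBPa, -1.86 for CEBPb and 0.120 for RXR. Leaving out 1 liver gave -4.44 to 2.24 points for CEBPa, -0.193 to 14.1 for CEBPb and -4.42 to 4.69 for RXR. The smallest p of 4 livers is 0.125, so the 4 TCPOBOP livers of 27 h alone could pass no threshold. Their differences from all-factor regions were -4.44 points in CEBPa share, -0.619 in CEBPb share, -0.15 and -0.16 in log2 CEBPa and CEBPb width, -0.938 bp in centre distance and -10.8 points in RXR within 10 kb. From CEBPb-only regions they differed by 19.9 points in CEBPb share, 2.13 in RXR share and 1.83 in RXR within 10 kb. The centre distance was also not called with lists of equal length (-0.600 bp) or at 3 h alone (-0.667 bp), nor was RXR within 10 kb against CEBPb-only regions at 3 h alone (1.27 points). The cause was not tested. No call changed with overlaps of 50%, without regions that touch an input peak, or, for the 7 call shares, with windows of 200 bp. Same-numbered livers of 3 h had deviations that correlated by at most 0.091 over regions, so the numbers were not taken as pairs. With the replicate block the differences were -0.609, 7.58 and -0.751 points as before, and 3 pairs cannot give p below 0.250. Depth is unknown, and list length limits every comparison of call rates between lists.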
